A study of Mus musculus with 6 samples.

Results

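The variant PRC1 accessory subunits described here are 9 genes, Kdm2b, Kdm2a, Bcor, Bcorl1, Rybp, Yaf2, L3mbtl2, Mga and E2f6, of 34797 gene names on the array. They were taken by name, together with every probe that carried their symbol, which gave 14 probes. Of these, 13 passed the filter on dim signal, and each of the 9 genes kept at least 1 probe. Kdm2a is among the 9 as the paralogue of Kdm2b, and no PRC1 complex is named for it here.

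Gene expression was measured on 6 two-colour Agilent arrays, 3 of hematopoietic stem cells (HSCs) and 3 of multipotent progenitors (MPPs). Each array set 1 sample of Bmi1 KO mice, labelled with Cy5, against 1 sample of wild-type (WT) mice, labelled with Cy3. Both genotypes were of the C57BL6 strain and 2 to 3 months old, and the cells were sorted by FACS. Per the labels, 10 µg of total RNA per sample was labelled by reverse transcription, and the replicates are called biological. Neither the extent of the Bmi1 deletion nor any pooling of animals is stated in the labels. The design asks how loss of Bmi1, a core subunit of canonical PRC1, changes expression in each population.

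PRC1 complexes are E3 ubiquitin ligases that attach a ubiquitin to histone H2A through RING1 or RNF2. Canonical PRC1 combines that core with BMI1 or PCGF2 and a CBX protein that reads the Polycomb methyl mark. Variant complexes carry RYBP or its paralogue YAF2 in the place of the CBX protein, and accessory subunits bring them to chromatin. KDM2B binds unmethylated CpG islands through a CXXC zinc finger and forms PRC1.1 with PCGF1 and either BCOR or BCORL1. PRC1.6 is built on MGA with L3MBTL2, E2F6 and PCGF6, and is known for keeping germline genes silent in somatic cells. BCOR and KDM2B have roles in blood cells, and Bmi1 is known for its requirement in the self-renewal of HSCs.

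The median spot signal over measured probes was 124 to 206 in green (WT) and 379 to 581 in red (KO), and 72.5% to 82.2% of spots in green and 78.8% to 83.9% in red were well above background. All arrays lay on 1 slide, with the 3 HSC arrays and MPP replicate 1 in row 1 and MPP replicates 2 and 3 in row 2. The arrays' KO/WT ratios correlated weakly, with Pearson's r over probes from -0.07 to 0.20 between arrays, and probes are not independent replicates. For Bmi1 the probe A_55_P2170335 had a log2 ratio of -1.11 (SE 0.47, n = 3) in HSCs and 0.01 (SE 0.47, n = 3) in MPPs, with an adjusted p of 0.68 and 1.00 in limma's fit over all probes. The HSC arrays gave -0.39, -2.42 and -0.50, so that mean rests largely on HSC replicate 2, and the other Bmi1 probe, A_52_P39157, was at -0.06 in HSCs and 0.53 in MPPs. The first probe was well above background in KO RNA on all 6 arrays. Without the position of the missing part, a Bmi1 probe does not check the genotype labels.

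Probe sequences are shown for Kdm2b, Kdm2a and Yaf2, 3 of the 4 members with more than 1 probe. The stretch of transcript a probe covers is part of what was measured. Probes of Kdm2b and Yaf2 gave unlike ratios, and 1 Kdm2a probe failed the filter. The ratios of the Bcorl1 probes, whose sequences are not shown, also differed, by 1.32 on HSC replicate 3. Each probe has 60 bases, of which the last 30 are printed 5′ to 3′ on the transcript strand, as the deposited files give them. Capitals mark AATAAA, the commonest polyadenylation signal, or a run of 5 or more T.
Kdm2b A_55_P2065154, chr5:123321714-123321773 (mm9, minus strand): cctgcaaaaactaagttagttccaggacaa
Kdm2b A_55_P2051274, chr5:123457757-123457816 (mm9, minus strand): atggctctgtctgtctgttagagatgcgga
Kdm2b A_55_P2065149, chr5:123320688-123320747 (mm9, minus strand): cctttgttggatttatataaacaattgtac
Kdm2a A_52_P92557, chr19:4318137-4318196 (mm9, minus strand): atccccacctgcctctctaagccaggcttt
Kdm2a A_55_P1971278, chr19:4316170-4316229 (mm9, minus strand): gatttggttttcTTTTTTgTTTTTgTTTTT
Yaf2 A_51_P292754, chr15:93115295-93115354 (mm9, minus strand): gattaaataggaagttgttattaAATAAAg
Yaf2 A_55_P2159830, chr15:93114341-93114400 (mm9, minus strand): gctagttgtgaatagtttattgcatacagt
The letters AATAAA, searched on the transcript strand alone, occurred in 1 of the 14 probes, the Yaf2 probe at base 1157 of its RefSeq transcript, and in 10.1% of the 55681 probes on the array. In that probe the related ATTAAA occurred 2 times, once overlapping it. The other Yaf2 probe lies further downstream, at base 2111. The Kdm2a probe with T runs, at base 7182 and 51.7% T, was well above background in WT RNA on 1 HSC array, in KO RNA on 1 HSC array and on no MPP array. It is the probe that failed the filter, and a run of 6 or more T occurs in 2.91% of the array's probes.

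No member differed between Bmi1 KO and WT beyond the spread between arrays once p-values were adjusted over all probes. With loess within arrays, Kdm2a was lower in KO on 6 of 6 arrays and L3mbtl2 higher on 6 of 6. The other 7 genes changed side between arrays of their brightest probe. At the brightest probes 7 of the 9 members had a mean ratio above 0 in HSCs, with a median log2 ratio of 0.49. Of all 28962 gene names 50.2% lay above 0 in HSCs, with a median of 0.00, beside which the members' median is read. The members' median was 0.77 without HSC replicate 1 and 0.13 (6 of 9) without HSC replicate 3, and with median centring of the arrays it was 0.85 (9 of 9, beside 68.9% of all names). In MPPs it was 6 of 9 with a median of 0.37, beside 50.7% and 0.01 over all names, and the median was 0.19 without MPP replicate 3 and 0.66 (8 of 9, beside 68.7% of all names) with median centring. The mean of both populations was above 0 for 8 of 9 members, with Kdm2a as the exception, and for 6 of 9 without HSC replicate 3 or with slide row as a term. Over all 13 tested member probes, 8 lay above 0 and 5 below in HSCs and likewise in MPPs, and 9 above and 4 below in the mean. WT and KO were always in the same dyes, so a dye effect specific to a probe and an effect of genotype cannot be told apart in these ratios. In RNA from sorted cells, fewer cells of a type and less RNA per cell cannot be told apart either.

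Of the 13 member probes, 0 passed an adjusted p of 0.05 in limma's fit in HSCs, in MPPs or in their mean, and percent called over all 44622 probes was likewise 0%. At an unadjusted p under 0.05, 1 of 13 member probes passed in HSCs, where 7.34% of all probes did, and 1 in MPPs, where 4.82% did. For the mean over both populations 3 of 13 passed, beside 7.9% of all probes. The same sign on all 3 HSC arrays was seen for 4 member probes (26.8% of all probes) and on all 3 MPP arrays for 4 (29.1%). The same sign on all 6 arrays was seen for 2, beside 6.24% of all probes. A model that fits both dyes separately and Agilent's own log ratios also called 0 member probes.

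**Figure D1:**
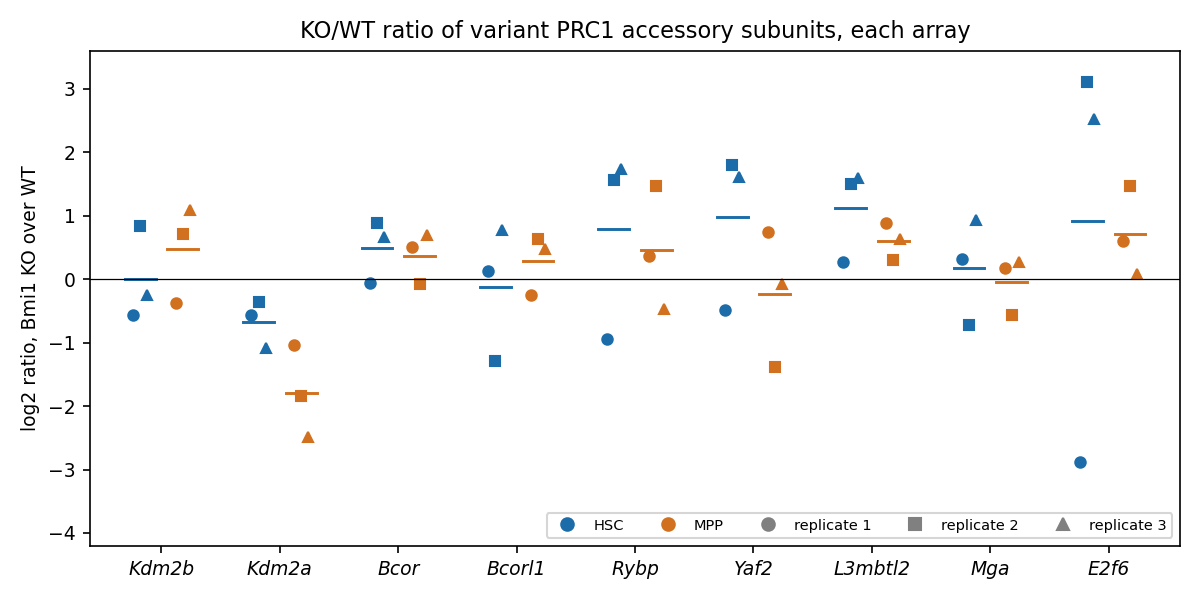
Log2 ratio of Bmi1 KO over WT (y axis) of the brightest probe of each of the 9 genes (x axis). Points are single arrays, blue for HSCs and orange for MPPs with a symbol for each replicate, and bars are means of 3 arrays. Kdm2a lies below 0 on all 6 arrays and L3mbtl2 above 0 on all 6, and HSC replicate 1 of E2f6 lies at -2.88 while the other HSC arrays lie at 3.12 and 2.52.

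Kdm2a, the paralogue of Kdm2b and a histone H3 lysine demethylase that also binds CpG islands, had log2 ratios of -0.56, -0.35 and -1.09 on the HSC arrays and -1.04, -1.84 and -2.48 on the MPP arrays. Every array lay below 0, and the MPP arrays lay lower than the HSC arrays except that HSC replicate 3 and MPP replicate 1 overlapped. The mean log2 ratio was -0.67 (SE 0.34, n = 3) in HSCs and -1.79 (SE 0.34, n = 3) in MPPs, the latter 3.45-fold lower. In limma's fit the MPP value had an unadjusted p of 0.0015 and an adjusted p of 0.99. Over both populations the mean was -1.23 (SE 0.24, adjusted p = 0.62, unadjusted 0.0018). The MPP value minus the HSC value was -1.12 (SE 0.48, 95% interval -2.27 to 0.03, adjusted p = 0.97). With slide row as a term, which leaves MPP replicate 1 as the array compared within row 1, the difference was -0.37 and the MPP value -1.04. With arrays centred on their median in place of loess, the HSC value was 0.03. Median centring raised the median of all probes by 0.25 in HSCs and 0.22 in MPPs, and the HSC value of Kdm2a rose by more than that. The lower HSC value was thus not seen with median centring. Over the alternatives the MPP value stayed below 0, from -2.16 to -1.04.

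In the channels, the Kdm2a signal of WT cells was 11.24, 13.27 and 13.40 (log2) on the HSC arrays and 12.87, 14.04 and 13.96 on the MPP arrays. The KO signal was 11.96, 14.59 and 13.94 in HSCs and 13.35, 13.89 and 13.17 in MPPs. HSC replicate 1 had the lowest signal in both dyes, and its ratio was not the most extreme of the HSC arrays.

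Kdm2b, which brings PRC1.1 to CpG islands, was read by 3 probes that gave unlike ratios. The brightest, at base 4073 of the RefSeq transcript, had log2 ratios of -0.57, 0.83 and -0.25 in HSCs and -0.38, 0.72 and 1.095 in MPPs, on both sides of 0 in both populations. Its mean was 0.00 (SE 0.40, n = 3) in HSCs and 0.48 (SE 0.40, n = 3) in MPPs. The probe A_55_P2051274 lies at the higher coordinate, which is upstream on this strand, and is annotated to a separate Ensembl transcript at its base 544. It had ratios of 0.66, 0.96 and 0.65 in HSCs and -0.34, 1.89 and 1.48 in MPPs, so 5 of 6 arrays were above 0 and MPP replicate 1 was not. Its mean over both populations was 0.88 (SE 0.31, unadjusted p = 0.028, adjusted p = 0.62 in limma). The third probe, at base 5099, had 0.57, -0.58 and -0.45 in HSCs and -0.18, -0.43 and -0.71 in MPPs, below 0 on 5 of 6 arrays. Its mean was -0.15 (SE 0.30, n = 3) in HSCs and -0.44 (SE 0.30, n = 3) in MPPs.

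Within an array the upstream Kdm2b probe exceeded the most downstream one by 0.09, 1.54 and 1.096 in HSCs and by -0.16, 2.32 and 2.20 in MPPs. The upstream probe was higher on 5 of 6 arrays, and the 3 probes gave no common direction for Kdm2b. Without MPP replicate 1 the upstream probe's MPP value was 1.69 (adjusted p = 0.48 in limma), and with slide row as a term it was -0.34.

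Bcor, the corepressor that scaffolds PRC1.1 and binds BCL6, was read by 1 probe at chrX:11614550-11614609 (mm9). It gave log2 ratios of -0.07, 0.88 and 0.67 on the HSC arrays, and of 0.51, -0.08 and 0.69 on the MPP arrays. In each population 2 arrays lay above 0.5 and 1 lay just below 0. The mean was 0.49 (SE 0.29, n = 3) in HSCs and 0.37 (SE 0.29, n = 3) in MPPs, with an adjusted p of 0.71 and 0.99 in limma.

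Bcorl1, which takes the place of BCOR in some PRC1.1 complexes, was read by 2 probes. The brighter one, at chrX:45737228-45737287, had ratios of 0.13, -1.29 and 0.78 in HSCs and -0.25, 0.63 and 0.48 in MPPs, with no common side. The probe further downstream, at chrX:45759430-45759489, had -0.17, -1.56 and -0.54 in HSCs and 0.13, 1.08 and -0.09 in MPPs. All 3 HSC arrays of this probe lay below all 3 MPP arrays, which was seen for 1 of 13 member probes and for 8.42% of all probes. Its MPP value minus its HSC value was 1.13 (SE 0.53, 95% interval -0.14 to 2.40, adjusted p = 0.97 in limma).

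Rybp, the adaptor shared by variant PRC1 complexes, binds RNF2 and the ubiquitin on H2A. Its probe at chr6:100178610-100178669 had log2 ratios of -0.94, 1.57 and 1.74 in HSCs and 0.37, 1.47 and -0.47 in MPPs. HSC replicate 1 lay below 0 and the other HSC arrays far above it, and the populations overlapped. The mean was 0.79 (SE 0.61, adjusted p = 0.76, n = 3) in HSCs and 0.45 (SE 0.61, adjusted p = 1.00, n = 3) in MPPs in limma's fit. The HSC value ranged from 0.32 without HSC replicate 3 to 1.66 without HSC replicate 1 (adjusted p = 0.30), and was 0.40 without HSC replicate 2.

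Yaf2, the paralogue of Rybp, was read by the probe that holds AATAAA and by the one downstream of it. The first had ratios of -0.48, 1.81 and 1.604 in HSCs and 0.74, -1.39 and -0.08 in MPPs. As for Rybp, HSC replicate 1 was negative and the other HSC arrays were above 1.5. The mean was 0.98 (SE 0.58, adjusted p = 0.71, n = 3) in HSCs and -0.24 (SE 0.58, adjusted p = 1.00, n = 3) in MPPs, and the HSC value ranged from 0.56 without HSC replicate 2 to 1.71 without HSC replicate 1 (adjusted p = 0.32).

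The downstream Yaf2 probe went the other way in HSCs, with ratios of -1.501, -4.53 and 0.43, and had -0.43, -0.10 and 0.41 in MPPs. Its WT signal of 11.08 (log2) on HSC replicate 2 stood far above the WT signals of 8.13 and 6.24 on the other HSC arrays, and its KO signal on the 3 HSC arrays ranged from 7.52 to 7.87. In WT it was well above background on 2 of 3 HSC and 2 of 3 MPP arrays. The mean in HSCs was -1.87 (SE 0.85, adjusted p = 0.68, n = 3), and without HSC replicate 2 it was -0.54. On HSC replicate 2 the Yaf2 probes' ratios differed by 6.33 on the log2 scale, and on the other arrays by -1.29 to 1.18.

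**Figure D2:**
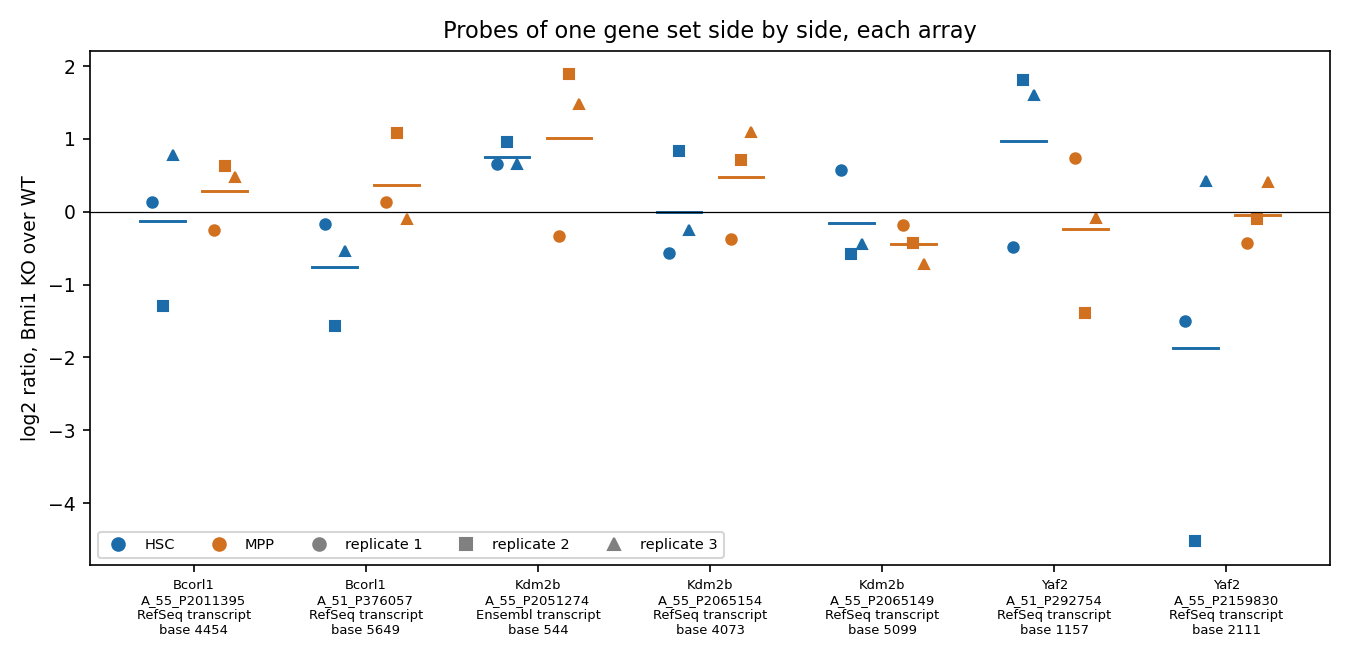
Log2 ratio of Bmi1 KO over WT (y axis) for each probe that passed the filter of Bcorl1, Kdm2b and Yaf2 (x axis, with the probe's position in its transcript). Points are single arrays, blue for HSCs and orange for MPPs, and bars are means of 3 arrays. The downstream Yaf2 probe lies at -4.53 on HSC replicate 2, where the upstream Yaf2 probe lies at 1.81.

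L3mbtl2, the PRC1.6 subunit with MBT domains, was read by 1 probe at chr15:81517795-81517854. The HSC arrays gave log2 ratios of 0.27, 1.51 and 1.601, and the MPP arrays 0.88, 0.31 and 0.63. Every array lay above 0, with HSC replicate 1 the lowest. The mean was 1.13 (SE 0.33, n = 3) in HSCs, 2.18-fold higher in KO, with an unadjusted p of 0.013 and an adjusted p of 0.67 in limma. In MPPs it was 0.61 (SE 0.33, adjusted p = 0.99, n = 3), and over both populations 0.87 (SE 0.23, adjusted p = 0.62, unadjusted 0.0090). Leaving out HSC replicate 1 gave 1.55 in HSCs (adjusted p = 0.21), and the alternatives for HSCs ranged from 0.89 to 1.55.

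Mga, the MAX partner on which PRC1.6 assembles, was read at chr2:119792479-119792538. The HSC arrays gave ratios of 0.32, -0.72 and 0.94, and the MPP arrays 0.18, -0.56 and 0.26. Replicate 2 lay below 0 in both populations and the others above. The means were 0.18 (SE 0.37, n = 3) and -0.04 (SE 0.37, n = 3), with an adjusted p of 0.92 and 1.00 in limma. The 95% interval of -0.72 to 1.08 in HSCs leaves room for a change of either sign.

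E2f6, the E2F factor without an activation domain that binds PRC1.6 target promoters, was read at chr12:16833463-16833522. The HSC arrays gave ratios of -2.88, 3.12 and 2.52, and the MPP arrays 0.60, 1.47 and 0.09. All MPP arrays lay above 0, and the HSC arrays spanned the widest range of any member. The HSC mean was 0.92 (SE 1.11, adjusted p = 0.84, n = 3) and the MPP mean 0.72 (SE 1.11, adjusted p = 1.00, n = 3) in limma. That SE is pooled over both populations, whose SDs were 3.30 in HSCs and 0.70 in MPPs. The WT signal of E2f6 was 9.37 (log2) on HSC replicate 1 and 6.14 and 6.69 on HSC replicates 2 and 3, and it was not well above background on replicate 2. The KO signal was 7.57 on HSC replicate 1 and 10.58 and 10.36 on the others. Without HSC replicate 1 the HSC value was 2.82 (adjusted p = 0.19), and without HSC replicate 2 it was -0.18.

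HSC replicate 1 had fewer members with a ratio above 0 than the other HSC arrays, in counts over 9 genes only. On it 3 of 9 members lay above 0, beside 51.4% of all gene names. HSC replicates 2 and 3 had 6 and 7 (49.8% and 49.1% of all names), and the MPP arrays 6, 5 and 6 (50.7% on each). In KO RNA its signal was the lowest of the 6 arrays for 6 of 9 members, where it was the lowest for 20.4% of all gene names. In WT RNA the lowest signal came from HSC replicate 2 for 5 of 9 members, beside 16.6% of all names. Without HSC replicate 1, 4 of the 13 member probes had an unadjusted p under 0.05 in HSCs (L3mbtl2, E2f6, Rybp and the first Yaf2 probe), all with a higher signal in KO, and 12.9% of all probes did. Each array was left out in turn, this one is singled out after its values were seen, and without HSC replicate 2 or 3 the count was 0 and 1 of 13. None passed after adjustment. This array also had the highest red median signal (581) and the largest share of red spots above background (83.9%), whose part in these values was not tested.

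The KO effect did not differ between MPPs and HSCs for any member beyond the spread. In limma's fit of the difference 0 of 13 member probes passed an adjusted p of 0.05 (0% of all probes) and 0 an unadjusted one (4.15% of all probes). The difference was below 0 for 7 of 9 members, with a median of -0.22, where 50.8% of all names lay above 0 with a median of 0.01. Single arrays set this median, which was -0.95 without HSC replicate 1 and 0.14 (5 of 9 above 0) without HSC replicate 3, and -0.37 with Agilent's log ratios or without MPP replicate 2. Its largest size among brightest probes was that of Yaf2, at -1.22 (SE 0.82, 95% interval -3.18 to 0.75), while the downstream Yaf2 probe had 1.83 (SE 1.20). Kdm2a, at -1.12, came next. A dye effect of a probe cancels in these differences.

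Paralogues were compared within each array, in 3 pairs. Kdm2a minus Kdm2b was -1.47 ± 1.34 (SD, n = 6 arrays) on the log2 ratio scale and ranged from -3.58 to 0.01, below 0 on 5 of 6 arrays. An exact two-sided sign-flip permutation test gave p = 0.0625, or 0.19 adjusted over the 3 pairs, where the smallest p it allows is 0.031. With the mean of the probes of each gene the difference was -1.504 and below 0 on 6 of 6 arrays, with an exact p of 0.031 and an adjusted one of 0.094. Bcor minus Bcorl1 was 0.35 ± 1.02 (SD, n = 6, exact permutation p = 0.53), and Rybp minus Yaf2 was 0.26 ± 1.29 (SD, n = 6, exact permutation p = 0.97). With the mean of the probes these were 0.49 (above 0 on 4 of 6 arrays, exact p = 0.31) and 0.92 (above 0 on 5 of 6, exact p = 0.16). At the brightest probes their signs rest on single arrays, since without HSC replicate 2 the first was -0.01 and without MPP replicate 2 the second was -0.27. The dyes were never exchanged, so dye effects specific to the probes stay in all 3 differences. The permutation test cannot tell them apart from an effect of genotype.

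Comparing the populations within a genotype, most members had a higher signal in WT MPPs than in WT HSCs at their brightest probe. None differed by more than the spread allows after adjustment. In WT, 6 of 9 members were higher in MPPs with a median log2 difference of 0.64, where 43.6% of all names were higher with a median of -0.09. Counted over the 13 probes, 7 were higher and 6 lower in MPPs. Of the 13 probes 0 passed an adjusted p of 0.05 in limma (0.287% of all probes, 102 higher and 26 lower) and 4 an unadjusted one (14.2% of all probes). The WT levels of HSCs and MPPs did not overlap for 4 member probes, beside 21.1% of all probes.

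L3mbtl2 had WT signals of 9.02, 7.91 and 9.35 (log2) in HSCs and 9.52, 10.00 and 9.98 in MPPs. The groups did not overlap, and MPPs were higher by 1.07 (SE 0.42, unadjusted p = 0.043, adjusted p = 0.34 in limma, n = 3). The first Yaf2 probe had 8.18, 7.82 and 8.06 in HSCs and 8.42, 9.78 and 8.90 in MPPs, again without overlap, a difference of 1.02 (SE 0.39, adjusted p = 0.33). The downstream Yaf2 probe went the other way, by -2.22 (SE 1.16, adjusted p = 0.43), or -0.92 without HSC replicate 2.

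The downstream Bcorl1 probe had 10.31, 11.49 and 10.44 in WT HSCs and 9.63, 8.86 and 9.61 in WT MPPs. MPPs were lower on every array, by -1.38 (SE 0.42, unadjusted p = 0.016, adjusted p = 0.28 in limma), and the brighter Bcorl1 probe differed by -0.68 (SE 0.51, adjusted p = 0.56). The most downstream Kdm2b probe had 6.97, 7.37 and 6.84 in HSCs and 7.72, 7.74 and 7.71 in MPPs, a difference of 0.66 (SE 0.25, adjusted p = 0.32). The brightest Kdm2b probe differed by -0.02 (SE 0.35, 95% interval -0.87 to 0.83) and the upstream one by -0.51 (SE 0.55, adjusted p = 0.70), so the probes of this gene do not share a difference.

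The remaining WT differences of MPPs from HSCs were 0.99 (SE 0.67) for Kdm2a, 0.42 (SE 0.44) for Bcor, 0.64 (SE 0.43) for Rybp, 0.84 (SE 0.35) for Mga and -0.42 (SE 0.85) for E2f6. Their adjusted p in limma ran from 0.36 to 0.85, and the HSC and MPP levels of each overlapped.

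**Figure D3:**
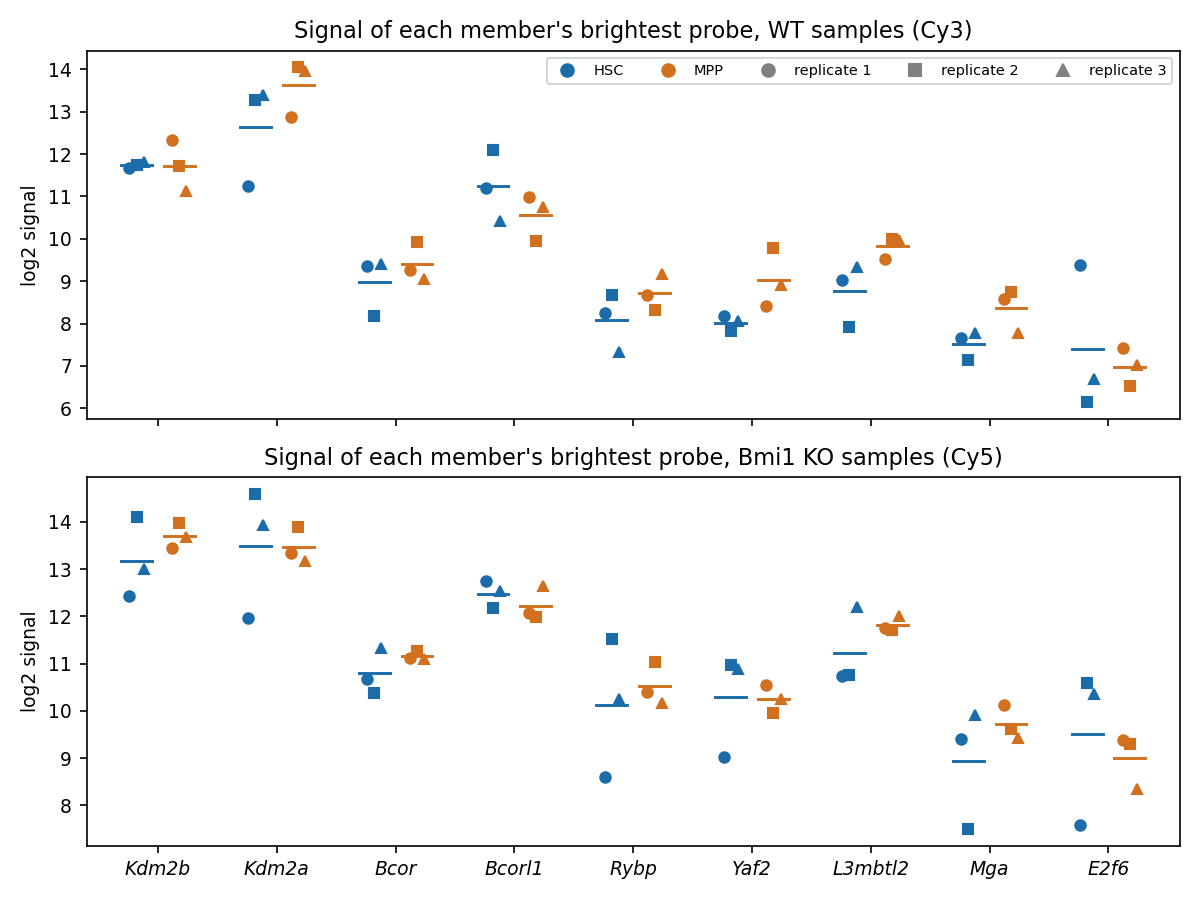
Log2 signal (y axis) of the brightest probe of each of the 9 genes (x axis) in WT samples (upper panel, Cy3) and Bmi1 KO samples (lower panel, Cy5). Points are single arrays, blue for HSCs and orange for MPPs, and bars are means of 3 arrays. The levels serve to compare arrays within a gene and a panel, as between HSCs and MPPs of L3mbtl2 in WT, and not genes or panels with each other.

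In KO cells 5 of 9 members were higher in MPPs, with a median of 0.37, where 43.0% of all names were higher with a median of -0.09. Without HSC replicate 1 it was 4 of 9 with a median of -0.13, without HSC replicate 2 it was 8 of 9 with 0.30, and without MPP replicate 2 it was 6 of 9 with 0.16. Of the 13 probes 6 were higher and 7 lower in MPPs. After adjustment 0 passed (0.352% of all probes, 129 higher and 28 lower). Without it 1 passed (11.6%), and 2 did not overlap between HSCs and MPPs (19% of all probes). The probe that passed without adjustment was the downstream Yaf2 probe, with KO signals of 7.87, 7.83 and 7.52 in HSCs and 6.95, 7.10 and 6.92 in MPPs. MPPs were lower on every array, by -0.75 (SE 0.24, unadjusted p = 0.019, adjusted p = 0.33 in limma). The upstream Kdm2b probe also did not overlap, with 13.90, 13.36 and 13.47 in HSCs and 13.15, 13.27 and 13.33 in MPPs, a difference of -0.33 (SE 0.26, adjusted p = 0.65). L3mbtl2 differed by 0.59 (SE 0.44), Mga by 0.78 (SE 0.63), Kdm2b's brightest probe by 0.53 (SE 0.46) and Bcor by 0.37 (SE 0.31). E2f6 differed by -0.50 (SE 0.83) and Kdm2a by -0.02 (SE 0.68). Rybp differed by 0.41 (SE 0.72), the first Yaf2 probe by -0.04 (SE 0.56) and the most downstream Kdm2b probe by 0.54 (SE 0.43). For Bcorl1 the difference was -0.25 (SE 0.30) at the brighter probe and -0.21 (SE 0.24) at the downstream one. WT and KO levels were read in different dyes, so only the order of HSCs and MPPs within a genotype was read, not an order over the 4 groups.

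The core and other partners of variant PRC1, a list of 23 genes of which 22 were tested, were mostly higher in MPPs. In WT 20 of 22 had a higher signal in MPPs, with a median of 0.69, and in KO 17 of 22, with a median of 0.60, beside 43.6% and 43.0% of all names. None passed an adjusted p of 0.05 in either. At an unadjusted one 4 higher and 1 lower passed in WT and 5 higher in KO, beside 14.2% and 11.6% of all probes. Over the alternatives the WT count ran from 17 to 20 and the KO count from 15 to 18. This list and the members contain no gene in common, and they come from the same samples.

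Among these partners in WT, Bcl6, the repressor that recruits BCOR, was higher in MPPs by 1.58 (SE 0.26, adjusted p = 0.10 in limma). Tfdp1, an E2F dimerisation partner, was higher by 1.19 (SE 0.31, adjusted p = 0.24). Pcgf6, the PCGF subunit of PRC1.6, was higher by 1.45 (SE 0.48, adjusted p = 0.30), and Tfdp2 by 1.596 (SE 0.56, adjusted p = 0.31) at its brightest probe and by 0.15 at its other one. Auts2, of PRC1.3 and PRC1.5, was the gene lower without adjustment, by -0.97 (SE 0.34), with 0.97 and -0.50 at its other probes. In KO the smallest unadjusted p belonged to Tfdp1 at 0.67, Cbx3, a heterochromatin protein of PRC1.6, at 0.90, Csnk2b, a casein kinase subunit, at 0.85 and Pcgf1 of PRC1.1 at 2.47. Their adjusted p in limma ran from 0.37 to 0.41.

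Between KO and WT the same partners showed no common side. In HSCs 10 of 22 had a ratio above 0 (median -0.02) and in MPPs 7 of 22 (median -0.30), beside 50.2% and 50.7% of all names. None was called, and 2 were past an unadjusted p in each, beside 7.34% and 4.82% of all probes. Their side was not stable, since the HSC median was 0.11 without HSC replicate 2 and the MPP median 0.09 (15 of 22 above 0) with slide row as a term. With median centring 18 of 22 lay above 0 in HSCs and 11 of 22 in MPPs, beside 68.9% and 68.7% of all names. Pcgf1, which pairs with KDM2B and BCOR, had a log2 ratio of -2.10 (SE 0.49, adjusted p = 0.67 in limma) in HSCs and 0.69 (SE 0.49, adjusted p = 0.99) in MPPs. Bcl6 was at 1.03 (SE 0.31, adjusted p = 0.67) in HSCs. Fbrs, a subunit of PRC1.3 and PRC1.5, was at -1.97 (SE 0.34, adjusted p = 0.99) in MPPs, and Auts2 at 0.89 (SE 0.33, adjusted p = 0.99) at its brightest probe, with -0.23 and -0.09 at its other probes.

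Canonical PRC1 subunits lay on both sides of 0, with 6 of 11 higher in MPPs in WT (median 0.03) and 4 of 11 in KO (median -0.36), none called, beside 43.6% and 43.0% of all names. The WT median was -0.23 without MPP replicate 3, and the KO median -0.07 without HSC replicate 2. Between KO and WT, 3 of 11 were above 0 in HSCs (median -0.64) and 4 of 11 in MPPs (median -0.12), none called, beside 50.2% and 50.7% of all names. The 11 include Bmi1, the deleted gene, at -1.11 in HSCs and 0.01 in MPPs. With median centring 4 of 11 lay above 0 in HSCs (median -0.13) and 5 of 11 in MPPs (median -0.06). The shares of all names were then 68.9% and 68.7%. Pcgf2, the alternative to BMI1, had a log2 ratio of 1.503 (SE 0.33, adjusted p = 0.67 in limma) in HSCs at its brightest probe and -0.27 at its other one. Cbx2, a CBX reader, was at -0.98 (SE 0.30, adjusted p = 0.67) and Scml2 at -0.83 (SE 0.32, adjusted p = 0.68, other probe -0.41) in HSCs. Phc1, a Polyhomeotic subunit, was at -1.57 (SE 0.57, adjusted p = 0.99, other probe -0.72) in MPPs. A further list held H2A deubiquitinases, which remove the mark PRC1 sets, and genes that are not deubiquitinases, such as Asxl1 and Foxk1. Of these, 8 of 11 were above 0 in HSCs (median 0.10) and 6 of 11 in MPPs (median 0.09). Over all names the shares were 50.2% and 50.7%. None of the 11 passed an unadjusted p, beside 7.34% and 4.82% of all probes.

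Germline genes known as PRC1.6 targets were read to accompany L3mbtl2, Mga and E2f6. Of 18 genes, 13 passed the filter on dim signal, and 12 of these 13 had a mean KO/WT ratio below 0, with a median of -0.16 beside 0.00 over all names. None passed an adjusted p of 0.05 and 1 passed an unadjusted one, beside 7.9% of all probes. It was Brdt, a testis bromodomain gene, at -0.62 (SE 0.18, adjusted p = 0.62 in limma), with 0.12 at its other probe. In HSCs Stag3, a meiotic cohesin subunit, was at -1.96 (SE 0.79, adjusted p = 0.68) and Zcwpw1 at -0.78 (SE 0.30, adjusted p = 0.68). Over the alternatives 9 to 12 of 13 were below 0.

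**Figure D4:**
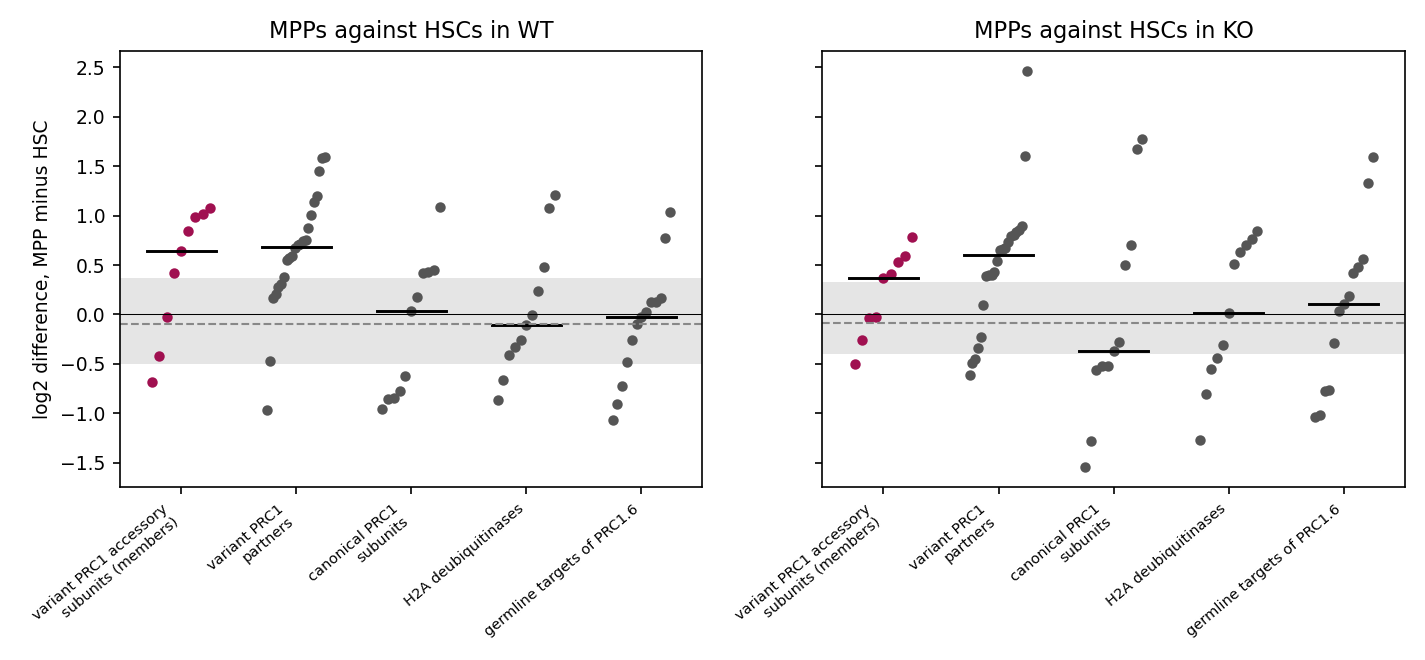
Log2 difference of MPP from HSC signal (y axis) in WT (left) and Bmi1 KO samples (right) for the 9 members and 4 lists of related genes (x axis), each gene a point at its brightest probe and each bar a median. The grey band spans the quartiles of all 28962 gene names and the dashed line is their median. The partners of variant PRC1 have a median of 0.69 in WT and 0.60 in KO, and the canonical subunits of 0.03 and -0.36. For the canonical subunits the WT median moved to -0.23 without MPP replicate 3, and the KO median to -0.07 without HSC replicate 2.

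The labelled populations were checked by marker genes. MPP and lymphoid markers such as Flt3 and Cd48 were higher in MPPs for 7 of 7 genes in each genotype. In WT 3 of them were called and in KO 2, beside 0.287% and 0.352% of all probes. HSC markers such as Procr and Mecom were lower in MPPs for 11 of 12 in WT, with 0 called. Of these, 6 passed an unadjusted p, beside 14.2% of all probes. In KO 9 of 12 HSC markers were lower (1 called). These calls are lost with a replicate block or slide row as a term, where 0 probes were called over the whole array. In WT 0 probes were called also without HSC replicate 1, HSC replicate 3 or MPP replicate 3. In KO 36 to 125 probes were called when 1 array was left out. B lineage markers such as Ebf1 and Pax5 had a higher KO than WT signal in MPPs for 9 of 9 genes. Of these markers 8 passed an unadjusted p under 0.05, beside 4.82% of all probes, and 0 after adjustment in limma (smallest adjusted p 0.86). Their median log2 KO/WT ratio over 9 genes was 1.601 on MPP replicate 1 (slide row 1). It was 4.02 and 4.50 on MPP replicates 2 and 3 (slide row 2), and 0.11, -0.06 and -0.30 on the HSC arrays. Summed over the 9 genes, their KO signal was 30360 to 194700 in MPPs and 7415 to 19430 in HSCs, and their WT signal 4095 to 5349 and 2877 to 5014. All 9 were well above background on all KO MPP arrays. Basophil and eosinophil markers varied widely among HSC arrays, with a summed signal over 6 genes of 585.5 to 10440 in WT and 950.7 to 151600 in KO. In MPPs these sums were 17410 to 70500 and 21660 to 105500. Erythroid markers, also 6 genes, varied widely too, from 1951 to 34390 in WT HSCs and 4335 to 45000 in KO HSCs. Their sums in MPPs were 2328 to 9205 in WT and 17130 to 69960 in KO. The part of such cells in the members' values was not tested.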

How the data were processed

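RNA of 3 HSC and 3 MPP samples per genotype was read on 6 two-colour arrays. Per the file headers, spot and background intensity were extracted with Agilent Feature Extraction 10.7.3.1, and the submitters' processing notes name 8.5.1.1. The deposited log10 ratio is processed red over processed green, and other deposited columns mark spots above background, non-uniform or outlying. Probe positions are those of the files (mm9).

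Mean intensities were corrected with normexp (offset 50) and loess-normalized within arrays with limma 3.58.1 (R 4.3.3), with control and outlying spots at weight 0, and outlying spots were then left out. No member spot was left out. Levels are log2 normexp signals, quantile-normalized over arrays within a dye. A probe was tested when it had a value on all 6 arrays and, in 1 or more of the 4 groups, was well above background on each of the 3 arrays (44622 of 55681 probes). lmFit and eBayes were run on all 6 arrays, with Benjamini-Hochberg adjustment over all probes. The fit was tested on simulated data. "Brightest" is the probe with the highest mean log2 signal, and lists and shares over all gene names (28962) use it. SEs and p-values in limma use 1 spread per probe, pooled over the HSC and MPP arrays and moderated over all probes. The KO/WT values of a probe in HSCs and in MPPs therefore share an SE, with 3 samples per group.

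Every member probe is reported, though not with a value in every comparison. Of other lists, genes with an unadjusted p under 0.05 could be named, at most 4 per list and comparison, except that Auts2 in the WT comparison and Pcgf1 in MPPs were named after their values were seen, the first because it was the one lower gene. Members and lists were chosen with earlier results of these data known. HSC and MPP arrays share replicate numbers, whose deviations correlated at -0.07, 0.00 and 0.01, so the numbers were not taken to pair the samples.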

Additional observations from a re-analysis of the deposited data

How the results depend on the processing

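Of 78 values of member probes (13 probes in 6 comparisons), no alternative gave an adjusted p under 0.05 in 964 recomputed values, of which 898 kept their sign and 66, of 32 values, did not. The count of member probes called was 0 under every setting, replicate block included. The replicate block and the slide row as a term left 0 calls over all probes in the WT and in the KO comparison of MPPs with HSCs, against 128 and 157, and median centring gave 157 calls over all probes for the mean KO effect. The WT calls were also 0 without HSC replicate 1, HSC replicate 3 or MPP replicate 3, and 5 without MPP replicate 1. The cause of the changes of sign was not tested.

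With median centring, log2 KO/WT in HSCs was 0.35 for Bcorl1 A_55_P2011395 and 0.031 for Kdm2a, in MPPs 0.077 for Yaf2 A_51_P292754 and 0.33 for Mga, and the mean over both was 0.17 for Bcorl1 A_51_P376057. With Agilent's log ratio, Kdm2b A_55_P2065154 was at -0.058 in HSCs, Yaf2 A_55_P2159830 at 0.11 and Mga at 0.053 in MPPs, and the difference of the KO effects for Mga at 0.0069. With 75th percentile scaling, MPPs against HSCs was 0.15 for Kdm2b A_55_P2065154 in WT and 0.076 for Kdm2a in KO.

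With slide row as a term, KO/WT in MPPs was -0.38 for Kdm2b A_55_P2065154, -0.34 for Kdm2b A_55_P2051274, 0.74 for Yaf2 A_51_P292754, -0.25 for Bcorl1 A_55_P2011395 and 0.18 for Mga. The MPP effect minus the HSC effect was then -0.38 and -1.09 for these Kdm2b probes, -0.13 for Bcorl1 A_55_P2011395, 0.0154 for Bcor and 3e-04 for Mga. The mean effect was -0.19 for Kdm2b A_55_P2065154 and -0.19 for Bcorl1 A_55_P2011395. MPPs against HSCs in WT was 0.59 and 0.68 for the same Kdm2b probes and 0.0142 for E2f6, and in KO 0.26 for Yaf2 A_51_P292754.

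Leaving out each array in turn gave these ranges where a sign changed. For KO/WT in HSCs they were -0.41 to 0.29 for Kdm2b A_55_P2065154, -0.51 to 0.062 for Kdm2b A_55_P2065149, -0.58 to 0.46 for Bcorl1 A_55_P2011395, -0.18 to 2.82 for E2f6 and -0.20 to 0.63 for Mga. In MPPs they were -0.73 to 0.33 for Yaf2 A_51_P292754, -0.26 to 0.15 for Yaf2 A_55_P2159830, -0.055 to 0.92 for Rybp and -0.19 to 0.22 for Mga. For the MPP effect minus the HSC effect they were -1.20 to 0.14 for Rybp, -0.17 to 0.87 for Bcorl1 A_55_P2011395, -0.18 to 0.93 for Kdm2b A_55_P2051274, -0.50 to 0.0701 for Kdm2b A_55_P2065149, -2.10 to 0.90 for E2f6, -0.40 to 0.11 for Bcor and -0.67 to 0.16 for Mga. For the mean effect they were -0.15 to 0.37 for Bcorl1 A_55_P2011395, -0.37 to 0.0101 for Bcorl1 A_51_P376057 and -0.12 to 0.29 for Mga. For MPPs against HSCs they were -0.33 to 0.28 for Kdm2b A_55_P2065154 and -1.05 to 0.57 for E2f6 in WT, and in KO -0.67 to 0.30 for Yaf2 A_51_P292754, -0.35 to 1.11 for Rybp, -0.79 to 0.52 for Kdm2a and -1.47 to 0.038 for E2f6. The paralogue differences ranged from -0.0097 to 0.57 for Bcor minus Bcorl1 and from -0.27 to 0.40 for Rybp minus Yaf2.

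The number of arrays limits precision, since 3 arrays per population and 1 slide give wide intervals. The dyes were never exchanged, and the probes Yaf2 A_55_P2159830 and E2f6 A_52_P270164 were not well above background in some WT samples.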
